A study of Mus musculus with 10 samples.

Results

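Fatty acid oxidation in peroxisomes was followed through 9 genes in liver RNA of mice given TM5614, an orally active small molecule that inhibits plasminogen activator inhibitor 1 (PAI-1). The 9 genes were taken by symbol: Ehhadh, Hsd17b4, Acaa1a and Acaa1b for enzymes of the chain-shortening cycle, Abcd3 for the importer, Decr2 and Crat for accessory enzymes, Pex11a for a membrane protein of the organelle and Cat for catalase. All 9 were present among the 24421 genes listed, and all 9 were among the 11092 genes that passed the filter on low counts. The animals were male wild-type C57BL/6 mice, 21 weeks old and fed ad libitum. The Chow group (n = 5) ate standard chow, and the TM5614 group (n = 5) ate chow that supplied TM5614 at 20 mg/kg/day for 10 days. Each mouse gave 1 library of polyadenylated RNA from a portion of liver, and nothing in the labels sets a time of day or a batch.

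Peroxisomes shorten very long, branched and dicarboxylic fatty acids that mitochondria handle poorly. The first, oxidising step of the cycle makes hydrogen peroxide, which catalase breaks down. The enzyme of Ehhadh or that of Hsd17b4 then hydrates and dehydrogenates the acyl chain, and a thiolase of the Acaa1 genes splits off acetyl-CoA. Shortened products leave as carnitine esters, made by the enzymes of Crat and Crot. In rodent liver many of these genes are classical targets of the nuclear receptor PPAR-alpha, the product of Ppara.

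The totals per library ranged from 6398335 to 10874955 counts, and the members held between 133 counts (Pex11a) and 37060 counts (Cat) in a library. In the Chow group 1 library stood apart. A smooth trend on GC content and transcript length explained 46.0% of the deviations of Chow replicate 2 from the median library, against at most 11.5% in any other. In the TM5614 group, replicate 2 held skeletal muscle transcripts. The summed level of 12 muscle markers, 0 of which passed the filter, was 4528 CPM there (CPM, counts scaled to a common library size with TMM factors). It was at most 81.0 CPM in the other TM5614 libraries and 0.736 to 1.25 CPM in the Chow libraries. The tests, ratios and profiles of the members are given with these libraries, and without them where that changed a call or moved a value widely.

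The labelled tissue was checked against its markers. The 8 hepatocyte markers summed to between 117951 and 131743 CPM in the Chow libraries and between 100616 and 119766 CPM in the TM5614 libraries, and 0 of the 8 passed the edgeR test described below, 2 of them with an unadjusted p under 0.05. The same count was 0 of 8 for Kupffer cells, 0 of 7 for liver endothelium, 0 of 6 for stellate cells and 0 of the 3 cholangiocyte markers tested, with 0, 1, 2 and 0 at an unadjusted p under 0.05. Of the 2 stellate cell genes, Des, which muscle also expresses, had 54.7 ± 113 CPM in TM5614 (SD, n = 5), and the stellate sum was 590 CPM in TM5614 replicate 2 against at most 436 CPM in the other libraries of that group. All 8 Kupffer cell markers had negative estimates, with a median log2 fold change of -0.35 and a summed level of 58.1 to 179 CPM in Chow and 63.0 to 134 CPM in TM5614. The hepatocyte list leaned the same way, with 6 negative and 2 positive estimates and a median of -0.29. Its 2 genes with an unadjusted p under 0.05 (edgeR), Ttr and Serpina1c, were both lower. Fat markers summed to at most 10.8 CPM and kidney markers to at most 1.58 CPM, with 4 of the 6 kidney markers at 0 in every library. Of the 6 erythroid markers, 4 were at 0 in every library (Hbb-bs, Hbb-bt, Hba-a1 and Hba-a2). The list still summed to 39.2 to 88.7 CPM in Chow and 34.7 to 54.5 CPM in TM5614. Most of that was Alas2, with means of 62.4 and 48.7 CPM. The zeros therefore do not show that erythroid RNA was absent. The part of other cell types in the results was not tested. In bulk RNA, fewer cells of a type and less RNA per cell cannot be told apart.

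The start regions of 3 members are shown, since Ehhadh was the member that moved most and the Acaa1a and Acaa1b copies moved apart. RefSeq promoter windows on GRCm38.p6 matched 7 of the 9 members, and for Hsd17b4 and Crat none is shown. Each line holds the 250 bases before the RefSeq start, 5′ to 3′ on the strand of the gene, with CCAAT boxes on either strand in capitals. They lie at chr16:21787835-21788084 (minus strand) for Ehhadh, chr9:119157094-119157343 (minus strand) for Acaa1b and chr9:119341044-119341293 (plus strand) for Acaa1a.
Ehhadh: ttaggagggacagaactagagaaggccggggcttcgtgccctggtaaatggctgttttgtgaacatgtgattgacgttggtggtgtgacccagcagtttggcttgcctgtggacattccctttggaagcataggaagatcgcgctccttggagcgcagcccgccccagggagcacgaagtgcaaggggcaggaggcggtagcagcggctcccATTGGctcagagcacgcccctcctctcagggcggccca
Acaa1b: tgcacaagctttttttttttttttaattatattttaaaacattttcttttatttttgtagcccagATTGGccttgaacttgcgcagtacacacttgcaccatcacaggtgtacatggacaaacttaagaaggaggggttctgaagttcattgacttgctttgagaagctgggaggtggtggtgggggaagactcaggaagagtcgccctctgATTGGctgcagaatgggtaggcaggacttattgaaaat
Acaa1a: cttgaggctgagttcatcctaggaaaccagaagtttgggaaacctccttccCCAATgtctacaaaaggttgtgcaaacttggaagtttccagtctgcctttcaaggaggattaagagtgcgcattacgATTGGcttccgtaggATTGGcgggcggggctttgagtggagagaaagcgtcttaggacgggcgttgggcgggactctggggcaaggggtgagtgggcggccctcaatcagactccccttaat
From the RefSeq starts, the nearest box began 38 bases upstream in Ehhadh and 38 bases upstream in Acaa1b. The boxes of Acaa1a began 199, 122 and 107 bases upstream. The Acaa1a window lies inside the GENCODE span of that gene (119339676 to 119350299), so its distances hold for the RefSeq start alone. The windows of Decr2 and Cat also overlap the GENCODE spans of their genes. A CCAAT box was in 4 of the 7 member windows (Ehhadh, Acaa1a, Acaa1b and Cat) and in 33.9% of all 32851 windows of this length. A direct repeat of AGGNCA with 1 base between the copies (DR1), a form of the element that PPAR-alpha and its partner RXR bind, was in 0 of the 7 windows and in 0.338% of all windows, on either strand. The single hexamer AGGTCA was in 1 of the 7, that of Cat, and in 14.0% of all windows. The E-box CACGTG was in 0 of the 7 and in 6.02% of all. These letters were searched in this window alone.

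Of the 9 genes, 1 was changed in TM5614 against Chow at an adjusted p under 0.05 (edgeR quasi-likelihood test, Benjamini-Hochberg adjustment over all 11092 genes). It was Ehhadh, which rose about 5-fold, while 0 of the 9 fell. Among all genes tested, 4.50% were called in either direction, 1.73% higher and 2.77% lower. The remaining 8 had log2 fold changes from -0.11 to 0.74, of which 7 were above 0. The median of the 9 was 0.45, where the median of all tested genes was 0.01. In 1 of the 9 genes, again Ehhadh, every TM5614 library lay above every Chow library, which was so for 4.07% of all genes tested. Counting both directions, the groups did not overlap in 8.93% of all genes.

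**Figure D1:**
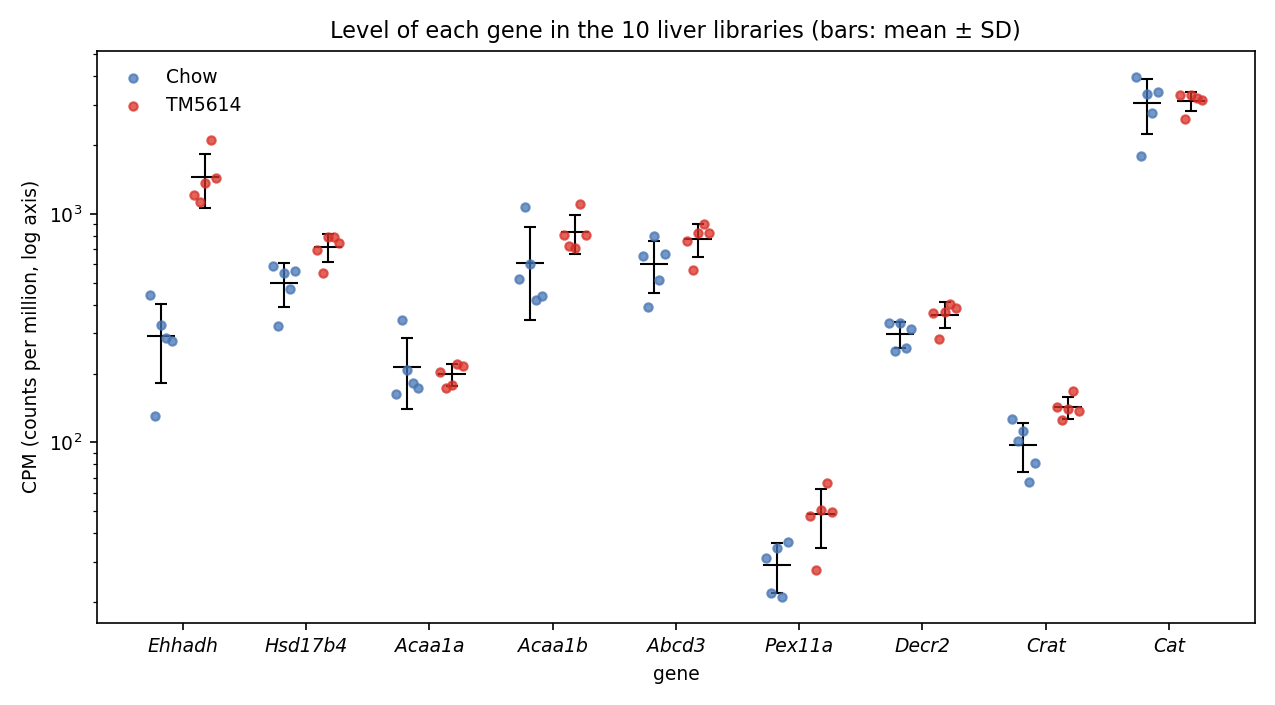
CPM (log axis) of the 9 genes in each of the 5 Chow (blue) and 5 TM5614 (red) libraries, with bars for the mean and SD. The groups are separate for Ehhadh alone, where the highest Chow library is at 441 CPM and the lowest TM5614 library at 1128 CPM.

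Ehhadh (chromosome 16, 21761287 to 21787807, minus strand, GRCm38) encodes the L-bifunctional enzyme, which hydrates and dehydrogenates acyl-CoA and is used for dicarboxylic chains. Chow replicates 1 to 5 had 441, 131, 327, 286 and 278 CPM. TM5614 replicates 1 to 5 had 1213, 1128, 1369, 2095 and 1431 CPM. The groups did not overlap, and Chow replicate 2 and TM5614 replicate 4 were the extremes. The means were 293 ± 111 CPM in Chow and 1447 ± 382 CPM in TM5614 (SD, n = 5 each). The fitted rise was 4.95-fold, or 2.31 on the log2 scale (standard error 0.28, edgeR adjusted p = 0.000889). It ranked 18 among all tested genes by size of rise. Under every alternative run the estimate stayed between 2.11 and 2.50, with an adjusted p of at most 0.00449, and without the replicates 2 of both groups it was 2.19 (edgeR adjusted p = 4.41e-05).

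Hsd17b4 encodes the D-bifunctional enzyme, which carries out the same steps and serves branched chains and bile acid precursors. Chow replicates 1 to 5 had 592, 323, 553, 469 and 561 CPM. TM5614 replicates 1 to 5 had 696, 553, 792, 793 and 748 CPM. Of the TM5614 libraries, 4 were above every Chow library, and replicate 2 was level with the upper Chow libraries. The log2 fold change was 0.52 (standard error 0.17, edgeR adjusted p = 0.106), which did not pass. It passed under DESeq2 (0.52, adjusted p = 0.0481), under limma-voom with sample quality weights (0.44, adjusted p = 0.0126) and without the replicates 2 of both groups (0.47, edgeR adjusted p = 0.00582). The range of the estimate over all alternatives was 0.39 to 0.60. On the same strand, the pseudogene Cd63-ps overlaps 875 bases of the Hsd17b4 locus. It was not among the genes listed, and its part in the count was not tested.

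The thiolase genes Acaa1a (chromosome 9, 119339676 to 119350299, plus strand) and Acaa1b (chromosome 9, 119148023 to 119157093, minus strand) are neighbouring copies that encode the last enzyme of the cycle. Their longest coding transcripts were 92.9% identical over 1637 aligned bases, and 27.3% of the 75-base windows of Acaa1a also occur in Acaa1b. Reads of that length can therefore be split between the copies, and the level of each is uncertain. On the opposite strand, Myd88 overlaps 1736 bases of the Acaa1a locus, at a mean of 15.5 CPM in Chow and 20.1 CPM in TM5614. For Acaa1a, the Chow replicates 1 to 5 had 163, 342, 207, 182 and 172 CPM and the TM5614 replicates 203, 174, 178, 220 and 216 CPM. The groups overlapped, and the log2 fold change was -0.11 (standard error 0.19, edgeR adjusted p = 0.775). Its sign was not fixed: it was 0.12 without Chow replicate 2, and 0.02 with the trend on GC content and length taken out.

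For Acaa1b, the Chow replicates 1 to 5 had 516, 1070, 604, 421 and 435 CPM. The TM5614 replicates 1 to 5 had 807, 723, 707, 1106 and 807 CPM. Without Chow replicate 2, every TM5614 library would lie above every Chow library. The log2 fold change with all libraries was 0.45 (standard error 0.24, edgeR adjusted p = 0.325). It was 0.74 without Chow replicate 2 (edgeR adjusted p = 0.00796), 0.79 without the replicates 2 of both groups (0.00482), 0.78 with the GC content and length trend removed (0.0127) and 0.72 under limma-voom with sample quality weights (limma adjusted p = 0.00529). The transcript of Acaa1b has the highest GC content of the 9, 58.9%, and in Chow replicate 2 the trend alone accounted for 0.83 log2 units of its level. With that trend removed the library had 604 CPM of Acaa1b. With the counts of both copies summed and fitted as 1 gene the log2 fold change was 0.32 (standard error 0.23, edgeR adjusted p = 0.442).

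Because the copies are read in the same library, their ratio does not depend on library scaling. The trend on GC content and length does not cancel in it. In Chow replicate 2 that trend was 0.83 log2 units for Acaa1b and 0.29 for Acaa1a. Per length (FPKM, read counts divided by gene length and library depth as the authors scaled them), Acaa1b stood at 3.34, 3.30, 3.07, 2.44 and 2.66 times Acaa1a in Chow replicates 1 to 5. The ratio was 4.19, 4.39, 4.19, 5.29 and 3.93 in TM5614 replicates 1 to 5. The groups did not overlap, Chow replicate 2 lay within the range of its group, and the mean rose from 2.96 ± 0.397 to 4.40 ± 0.526 (SD, n = 5 each). The exact two-sided permutation test over 252 splits gave p = 0.00794, the smallest it can give, and 0.00952 after adjustment over the 6 ratios tested. The ratios were chosen after the gene values had been seen. Some of the 6 hold Ehhadh, whose groups were already known to be separate, so the adjustment corrects for less than 6 open tests. The 2 groups' means differed 1.49-fold, with 1.41 to 1.65 under the alternatives run, all with p of at most 0.0286 (exact permutation test). The 1.65 was with the trend on GC content and length removed.

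Other ratios set a peroxisomal enzyme against its counterpart. Ehhadh to Hsd17b4, the L- against the D-bifunctional enzyme, was 0.362 to 0.663 in Chow and 1.54 to 2.36 in TM5614. Ehhadh to Hadha, the mitochondrial trifunctional protein's alpha subunit, was 0.308 to 1.07 in Chow and 2.27 to 3.61 in TM5614. The sum of both Acaa1 copies to Acaa2, the mitochondrial thiolase, was 0.610 to 0.875 in Chow and 0.904 to 1.17 in TM5614. In each of these 3 ratios the groups did not overlap (exact permutation p = 0.00794, adjusted 0.00952), and the calls held under every alternative run. Ehhadh to Cat behaved the same way, at 0.0620 to 0.0938 and 0.310 to 0.551. The ratios with Ehhadh restate its rise, which was already known, so their p-values are not separate evidence. Decr2 to Decr1, the peroxisomal against the mitochondrial dienoyl-CoA reductase, was 1.42 ± 0.329 in Chow and 1.36 ± 0.0907 in TM5614 (SD, n = 5 each, exact permutation p = 0.778), but Chow replicate 2 alone was at 0.850. Without that library the mean ratio in TM5614 was 0.872 times that in Chow (exact permutation p = 0.0159, not adjusted). With all libraries kept and the trend on GC content and length removed, it was 1.01 times that in Chow (exact permutation p = 0.976). A fall is therefore not established.

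**Figure D2:**
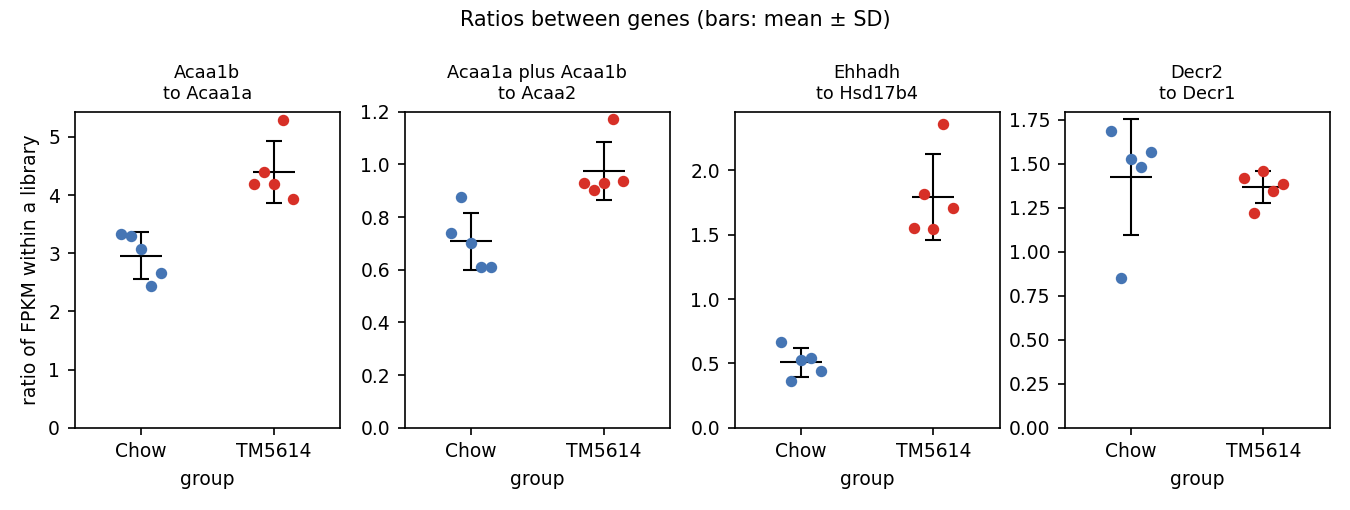
Ratio of FPKM values of the named genes within each library, by group, with bars for the mean and SD. Acaa1b to Acaa1a, both Acaa1 copies to Acaa2, and Ehhadh to Hsd17b4 are higher in all 5 TM5614 libraries than in any Chow library, while Decr2 to Decr1 overlaps and has a single low Chow library at 0.850.

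Abcd3 (chromosome 3, 121758774 to 121815302, minus strand) encodes the ABC half-transporter PMP70, which brings acyl-CoA into the organelle. It lay between 392 and 799 CPM in Chow and between 565 and 906 CPM in TM5614. The groups overlapped, and the log2 fold change of 0.35 (standard error 0.19, edgeR adjusted p = 0.309) did not pass here or in any alternative, over which it ran from 0.23 to 0.48. On the same strand, Gm43609 overlaps 2712 bases of the Abcd3 locus and 4633401B06Rik overlaps 1073 bases. Neither was among the genes listed, and the part of their reads in the Abcd3 count was not tested.

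Pex11a (chromosome 7, 79735957 to 79743131, minus strand) encodes a peroxisomal membrane protein that takes part in the division of peroxisomes. Chow replicates 1 to 5 had 31.0, 21.9, 34.5, 21.1 and 36.6 CPM. TM5614 replicates 1 to 5 had 47.5, 27.5, 50.8, 66.4 and 49.8 CPM. Replicate 2 was the only TM5614 library inside the Chow range. The log2 fold change was 0.74 (standard error 0.23, edgeR adjusted p = 0.0949), the largest of the 8 that did not pass. Without TM5614 replicate 2 it was 0.88 (edgeR adjusted p = 0.0270), and it passed as well under DESeq2 (0.74, adjusted p = 0.0372) and limma-voom with sample quality weights (0.69, adjusted p = 0.0273). An annotated antisense gene, Gm44706, overlaps 1339 bases of its locus. Use of strand in counting is not stated, so reads of that gene and of Pex11a cannot be told apart.

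Decr2 (chromosome 17, 26081208 to 26090337, minus strand) encodes the 2,4-dienoyl-CoA reductase that prepares unsaturated chains for the cycle. It lay between 250 and 333 CPM in Chow and between 282 and 403 CPM in TM5614, with 4 of 5 TM5614 libraries above every Chow library. The log2 fold change was 0.28 (standard error 0.13, edgeR adjusted p = 0.240), and the lowest adjusted p over its alternatives was 0.0516.

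Crat (chromosome 2, 30400471 to 30415813, minus strand) encodes carnitine acetyltransferase, which forms acetylcarnitine in peroxisomes and mitochondria. Chow replicates 1 to 5 had 127, 101, 113, 66.9 and 81.5 CPM. TM5614 replicates 1 to 5 had 143, 125, 139, 168 and 137 CPM. The groups met only at TM5614 replicate 2, which lay just under Chow replicate 1. The log2 fold change was 0.54 (standard error 0.16, edgeR adjusted p = 0.0916), and it passed under DESeq2 (0.54, adjusted p = 0.0351), limma-voom with sample quality weights (0.58, adjusted p = 0.0204) and without the replicates 2 of both groups (0.59, edgeR adjusted p = 0.0388). On the opposite strand, the antisense gene Gm16323 overlaps 1623 bases of the Crat locus and Dolpp1 overlaps 59 bases.

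Cat (chromosome 2, 103453849 to 103485160, minus strand) encodes catalase. Chow replicates 1 to 5 had 3979, 1791, 3337, 2756 and 3409 CPM, and TM5614 replicates 1 to 5 had 3311, 2610, 3305, 3219 and 3148 CPM. The TM5614 libraries all fell inside the Chow range, and the log2 fold change of 0.03 (standard error 0.18, edgeR adjusted p = 0.940) turned to -0.12 without Chow replicate 2. The CV was 27.1% within Chow and 9.37% within TM5614, and without the replicates 2 it was 14.8% and 2.39%. Together the 9 genes took 0.442% to 0.683% of the TMM-scaled library size in Chow libraries and 0.619% to 0.898% in TM5614 libraries. Cat supplied 40.5% of that sum in Chow replicate 2, 52.9% to 58.2% in the other Chow libraries and 35.9% to 43.9% in TM5614, so the overlap of the groups came from Chow replicate 2 alone. The share of Ehhadh in it was 2.96% to 6.45% in Chow and 16.1% to 23.3% in TM5614.

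**Figure D3:**
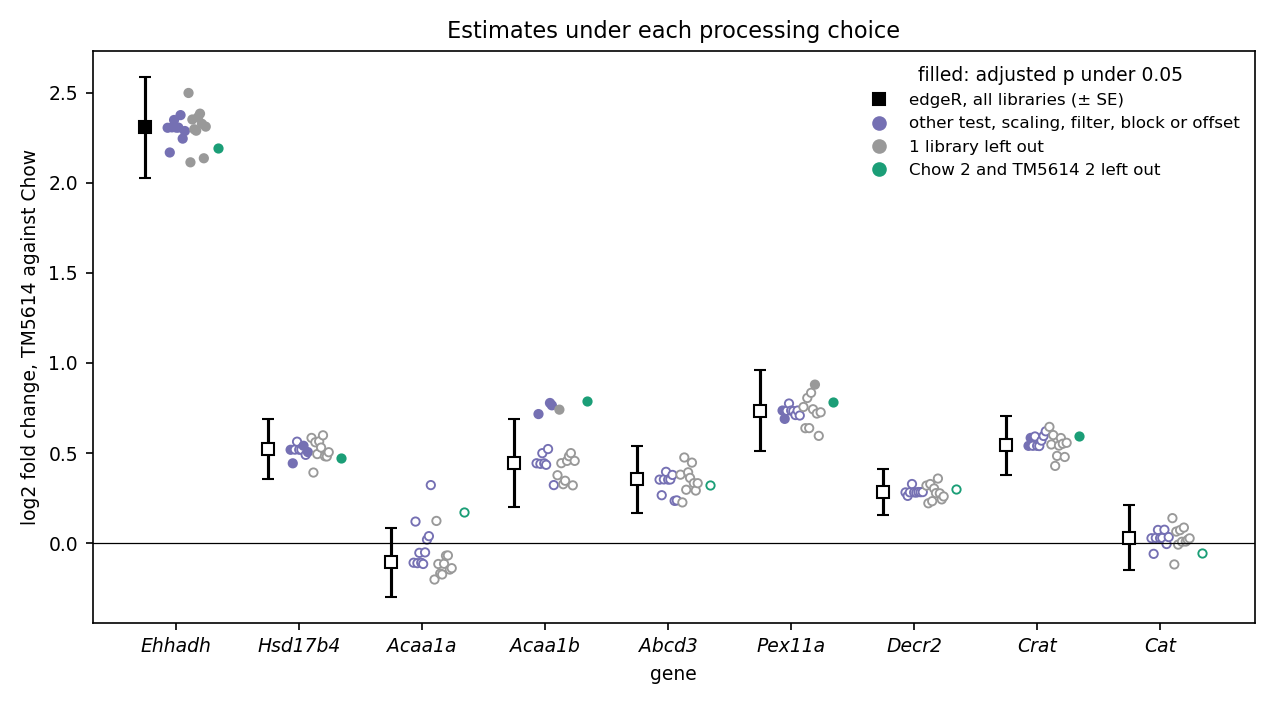
Log2 fold change (TM5614 against Chow) of each gene from edgeR with all libraries (squares, with the SE), under other tests, scalings, filters, the replicate block and the GC content and length offset (purple), with 1 library left out (grey) and with the replicates 2 of both groups left out (green). Filled symbols have an adjusted p under 0.05, which holds for every Ehhadh symbol, for some of Hsd17b4, Acaa1b, Pex11a and Crat, and for 0 of Acaa1a, Abcd3, Decr2 and Cat.

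Levels of different genes were compared per length, by FPKM. In Chow the order was Cat (1183 ± 323), Acaa1b (361 ± 159), Hsd17b4 (184 ± 40.3), Abcd3 (176 ± 45.9), Decr2 (143 ± 19.6), Acaa1a (120 ± 41.5), Ehhadh (96.1 ± 36.7), Pex11a (32.6 ± 8.08) and Crat (22.0 ± 5.44 FPKM, SD, n = 5 each). Ranges did not overlap between Cat and Acaa1b, Acaa1b and Hsd17b4, or Ehhadh and Pex11a. From Hsd17b4 down to Ehhadh, and from Pex11a to Crat, each gene overlapped its neighbour. In TM5614, Ehhadh moved from the 7th to the 3rd place, at 474 ± 128 FPKM, where it overlapped Acaa1b (491 ± 97.9 FPKM) and lay above every value of Hsd17b4 (263 ± 38.3 FPKM, SD, n = 5 each). The order of the other 8 did not change.

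Within the TM5614 group the genes shared their high and low libraries. Replicate 4 was the highest of its group in 8 of the 9 genes, all but Cat, and replicate 2 was the lowest in 8 of the 9, all but Acaa1b. In the Chow group, replicate 2 was the lowest in 5 genes and the highest in 2, Acaa1a and Acaa1b, while replicate 4 was the lowest in 3. After centring each gene within its group, the closest profiles were those of Hsd17b4 and Cat, whose log2 CPM differed by a root mean square of 0.093 over the 10 libraries. Acaa1a and Acaa1b were nearest to each other, at 0.163, and Ehhadh and Acaa1b were farthest apart, at 0.716. These distances rested largely on the replicates 2 of both groups. Over the 8 libraries without them, Ehhadh and Acaa1b were at 0.195, with Acaa1b now the nearest to Ehhadh, and the closest profiles were those of Hsd17b4 and Decr2, at 0.059. All genes share the same libraries, their scaling and the trend on GC content, so this is a description.

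**Figure D4:**
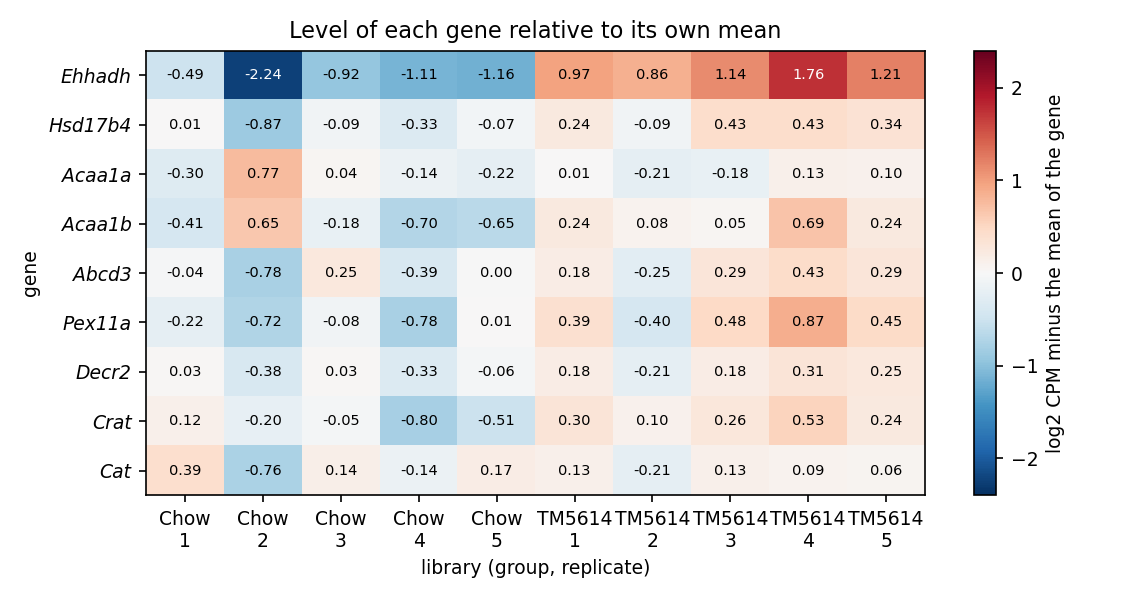
Log2 CPM of each gene minus its own mean, by library, from blue (lower) to red (higher). The Ehhadh row runs from -2.24 in Chow replicate 2 to 1.76 in TM5614 replicate 4, and Acaa1a and Acaa1b are the only genes above their mean in Chow replicate 2.

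Other genes of the organelle were counted from fixed lists. Of 17 other genes of peroxisomal fatty acid oxidation, all tested, 1 was higher and 0 were lower. It was Crot, which encodes carnitine octanoyltransferase, at 739 ± 243 CPM in Chow and 1542 ± 242 CPM in TM5614 (SD, n = 5 each, log2 fold change 1.06, standard error 0.23, edgeR adjusted p = 0.0209). The median of the list was 0.08. The count was 7, with 5 higher and 2 lower, without the replicates 2 of both groups, 4 (2 higher and 2 lower) without Chow replicate 2 alone, and 0 without Chow replicate 4, TM5614 replicate 3 or TM5614 replicate 4.

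Peroxins build the organelle and import its proteins. Of 15 peroxin genes besides Pex11a, 0 passed (edgeR), 0 had an unadjusted p under 0.05, and the count was 0 under DESeq2, limma-voom and every other alternative. Their log2 fold changes ran from -0.38 to 0.30, with a median of -0.03. Of 14 genes for peroxisomal oxidases and peroxide handling, 12 were tested and 2 were lower. Pipox, which encodes the oxidase of pipecolate and sarcosine, fell by 0.46 on the log2 scale (standard error 0.11, edgeR adjusted p = 0.0299), and Paox, which encodes a polyamine oxidase, fell by 0.98 (standard error 0.24, edgeR adjusted p = 0.0368). The median of the list was -0.25. Its count was 4 without Chow replicate 2, 1 without Chow replicate 1 or 5 or TM5614 replicate 1 or 5, and 0 without Chow replicate 3 or TM5614 replicate 2, 3 or 4. Of the 3 ether lipid synthesis genes tested, 0 passed (edgeR), 0 had an unadjusted p under 0.05, and the count was 0 under every other alternative, DESeq2 and limma-voom included.

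Mitochondria run the parallel pathway. Of 17 mitochondrial genes, 4 were higher and 0 lower: Hadhb (log2 fold change 0.76), Etfdh (0.64), Cpt2 (0.41) and Acadl (0.37), with edgeR adjusted p-values from 0.0197 to 0.0439. Hadhb encodes the beta subunit of the trifunctional protein, Etfdh passes electrons to the respiratory chain, Cpt2 belongs to the carnitine shuttle and Acadl is an acyl-CoA dehydrogenase. The counterparts of the peroxisomal enzymes did not pass: Hadha had 0.35, Decr1 0.29 and Acaa2 -0.10 (edgeR adjusted p = 0.102, 0.276 and 0.716). The median of the list was 0.22. Its count was 9, all higher, without Chow replicate 2. Leaving out Chow replicate 3 gave 2, leaving out Chow replicate 4 or 5 or TM5614 replicate 1 gave 1, and the count was 0 without TM5614 replicate 3, 4 or 5.

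Among 18 known PPAR-alpha targets outside the peroxisome, 10 were higher, 0 were lower and all 18 estimates were positive, with a median log2 fold change of 1.03. Part of this list was known to be higher when it was written, and 4 of its genes are also in the mitochondrial list, so the count is not independent evidence. The 10 were Pdk4, Fgf21, Cidec, Acot1, Cyp4a10, Acot2, Cyp4a14, Plin2, Fabp2 and Cpt2. Pdk4 had 3.94 ± 1.63 CPM in Chow and 47.1 ± 55.6 CPM in TM5614 (SD, n = 5 each). Its spread in TM5614 was larger than its mean, so the size of its rise is uncertain. Acot1 and Acot2 belong to a family of similar sequence, as do the Cyp4a genes, and their single values are uncertain. Ehhadh, at 2.31, lay between Acot1 (2.04) and Cidec (2.43). Ppara itself had 564 ± 79.4 CPM in Chow and 553 ± 86.4 CPM in TM5614 (SD, n = 5 each, log2 fold change -0.03, standard error 0.14, edgeR adjusted p = 0.922). Of the 8 genes for the receptor and its partners, 2 were lower, Rxra (-0.38) and the coactivator gene Ppargc1b (-0.83, edgeR adjusted p = 0.0417 each). Both lay close to the threshold, and this list was not counted under the alternatives.

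**Figure D5:**
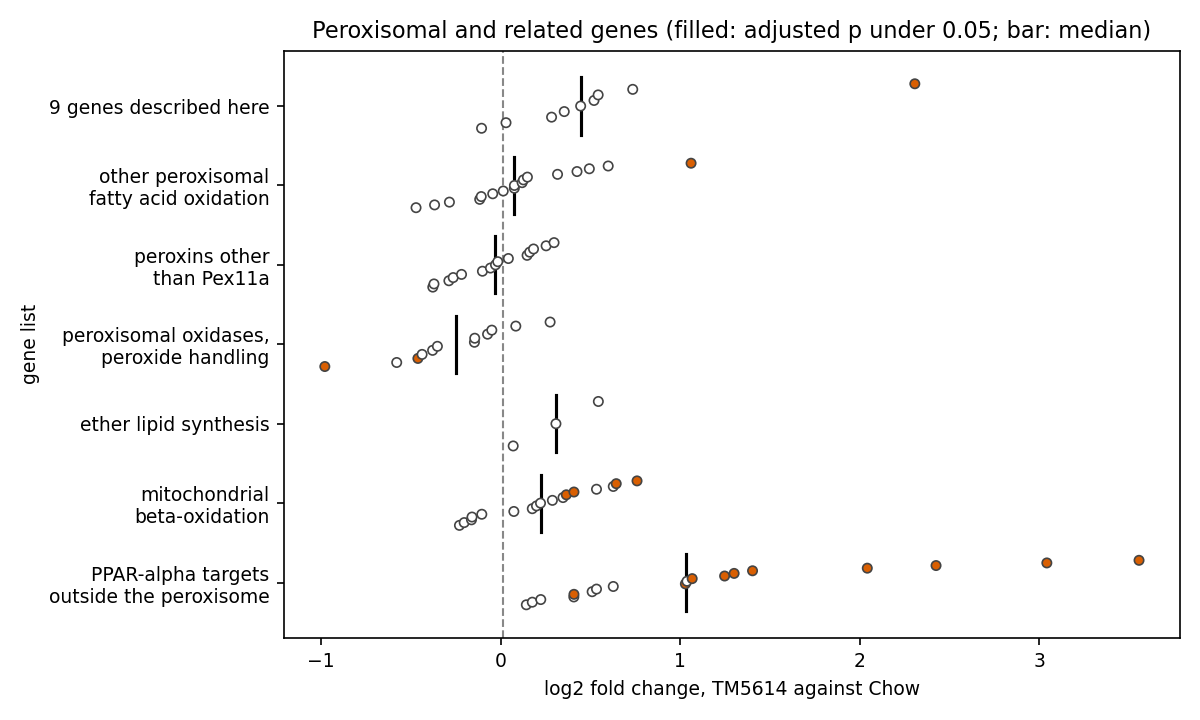
Log2 fold change (TM5614 against Chow) of every tested gene of each list, with filled points for an adjusted p under 0.05, a bar at the median of the list and a dashed line at the median of all tested genes, 0.01. The peroxins lie around that line, with a median of -0.03, while all 18 PPAR-alpha targets outside the peroxisome lie above 0.

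Some clock genes differed between the groups. Of the 4 tested genes that peak with Arntl, 2 were higher (Arntl and Clock), with the list at 43.3 to 78.2 CPM in Chow and 95.4 to 153 CPM in TM5614. Of 10 genes that peak with Dbp, 5 were lower (Dbp, Tef, Per1, Per3 and Ciart), with the list at 842 to 1000 CPM in Chow and 411 to 586 CPM in TM5614. The part of these genes, or of the hour of collection, in the change of Ehhadh was not tested.

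The genes most like Ehhadh were sought among 7359 tested genes outside the list with a mean of at least 10 CPM. Likeness was the root mean square difference of log2 CPM profiles over the 10 libraries, each centred on its gene's mean. The nearest 5 were Insig2 (0.462), Acot1 (0.492), Cidec (0.504), St5 (0.509) and G6pc (0.523). Insig2 encodes an endoplasmic reticulum protein that restrains sterol regulators, Acot1 a cytosolic acyl-CoA thioesterase, Cidec a lipid droplet protein and G6pc glucose-6-phosphatase. Their log2 fold changes were 1.76, 2.04, 2.43, 1.83 and 1.60. The distance includes the difference between groups, so genes near Ehhadh were bound to have large rises. Genes with small changes were bound to lie far from it. The nearest of the other 8 members was Pex11a, at 0.911, followed by Hsd17b4 at 0.953, and the farthest was Acaa1a, at 1.40. Without the replicates 2 of both groups, 3 of the nearest 5 were the same (Acot1 at 0.104, Insig2 at 0.347 and St5 at 0.380), and the nearest member was Acaa1b, at 0.727.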

How the data were processed

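Liver mRNA libraries were sequenced as 75-base single-end reads, and the study aligned them to mm10 with STAR in the RNA Express application. HOMER and DESeq2 are also in the submitters' processing notes. Annotation, versions and strand setting are not given in the sources used here. The authors deposited raw counts per gene symbol for each library. They also deposited FPKM values, whose library divisors equalled DESeq2 size factors computed from the counts, and these were used only for levels per length and ratios. Their regularised log2 values and their own DESeq2 comparison (fold changes and p-values) were not used. Header mouse numbers tied columns to samples.

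Counts were filtered with filterByExpr, scaled with TMM and tested with edgeR 4.0.16 (glmQLFit, glmQLFTest, two-sided, R 4.3.3). P-values were adjusted by Benjamini-Hochberg over all tested genes, with a threshold of 0.05. The SE is the absolute log2 fold change over the root of F. log2 CPM had a prior count of 2. Mice are the replicates. Alternatives were DESeq2 1.42.0, limma 3.58.1 (voom with sample quality weights), other scalings and filters, the replicate number as a block, an offset for GC content and length (splines, 5 degrees of freedom each, 96.7% of genes matched by symbol), summed Acaa1 copies and each library left out. Leaving out the replicates 2 of both groups (also for profiles and CVs), and the ratios between genes, were added after seeing the data. Fits were tested on simulated counts. Coordinates and transcripts came from GENCODE M21 (GRCm38, which mm10 names).

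The members and lists were chosen with earlier results of these data known. Named are the 9 members, list genes past the threshold, the mitochondrial counterparts, Ppara and the 5 genes most like Ehhadh. Of the genes set to be named beside the members, 1 is not reported here.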

Additional observations from a re-analysis of the deposited data

Results flagged for a closer look

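Each gene's 5 CPM values per group were searched for a library whose gap to its nearest neighbour exceeded 0.71 of the whole range, over 18 groups of 5. Chance gives about 1 in 20 such groups, and 5 were found, which share libraries and so are not independent. In Chow replicate 2, Acaa1a was at 342 CPM against 163 to 207 CPM in the others, and Acaa1b was at 1070 CPM against 421 to 604 CPM. That library carried the trend on GC content and length, and with the trend removed the values were 279 and 604 CPM. In TM5614 replicate 4, Acaa1b was at 1106 CPM against 707 to 807 CPM. In TM5614 replicate 2, the library with muscle transcripts, Decr2 was at 282 CPM against 369 to 403 CPM and Cat was at 2610 CPM against 3148 to 3311 CPM. The part of the trend or of muscle RNA in these values was not tested beyond the values given.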

How the results depend on the processing

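The rise of Ehhadh kept its direction and its call under all 20 alternatives, and Abcd3 and Decr2 kept theirs below the threshold. The number of the 9 genes called, 1 here, was 4 under DESeq2, 5 under limma-voom with sample quality weights, 2 with the GC content and length offset, 5 without the replicates 2 of both groups and 1 to 2 with 1 library left out (2 without Chow replicate 2 or TM5614 replicate 2). All were higher. The number of all genes called, 499 of 11092 here, is to be read beside these counts. It was 908 of 11242 under DESeq2, 1386 of 11092 under limma-voom and 716 of 11092 with the offset. Without the replicates 2 of both groups it was 1230 of 11053. With 1 library left out it was 235 to 1031. It was 1031 of 11162 without Chow replicate 2 and 293 of 11225 without Chow replicate 3. Without TM5614 replicates 1, 2, 3 and 4 it was 331 of 11236, 373 of 11196, 235 of 11218 and 259 of 11215.

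Same-numbered libraries of the groups deviated together with correlations from 0.0316 to 0.318, 3 of them over 0.1, and 3 of 10 libraries correlated best with their own number, so the numbers are not shown to pair the samples. With the replicate number as a block, 2 of the 9 and 555 of all genes were called, Hsd17b4 passed (0.54, edgeR adjusted p = 0.0356) and other peroxisomal oxidation genes numbered 4. With the replicate block and the GC content and length offset together, 3 of the 9 and 771 of all were called, Hsd17b4 (0.51) and Acaa1b (0.76) passed, and the estimate of Acaa1a was 0.039 and the other peroxisomal oxidation genes numbered 6.

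Estimates that did not pass here and passed elsewhere were, under DESeq2, Hsd17b4 (0.52), Pex11a (0.74) and Crat (0.54), under limma-voom, Hsd17b4 (0.44), Acaa1b (0.72), Pex11a (0.69) and Crat (0.58), with the GC content and length offset, Acaa1b (0.78), and without the replicates 2 of both groups, Hsd17b4 (0.47), Acaa1b (0.79), Pex11a (0.78) and Crat (0.59). With 1 library left out, Acaa1b ran from 0.32 to 0.74, Pex11a from 0.60 to 0.88, Hsd17b4 from 0.39 to 0.60 and Crat from 0.43 to 0.64. Acaa1a changed sign under limma-voom (0.12), the offset (0.019) and without the replicates 2 of both groups (0.17). With 1 library left out, Acaa1a ran from -0.20 to 0.12, positive without Chow replicate 2 at 0.12. The summed copies, fitted as 1 gene, had 0.32, which is not an estimate of Acaa1a alone. Cat changed sign under limma-voom (-0.059), the offset (-0.0050), without the replicates 2 of both groups (-0.057) and with 1 library left out (-0.12 to 0.14, negative at -0.12 without Chow replicate 2 and -0.0082 without Chow replicate 4). Decr2 to Decr1 was 1.01 times as high in TM5614 with the trend removed, 0.895 without the replicates 2 of both groups, and 0.872 to 1.01 with 1 library left out (0.872 without Chow replicate 2 and 1.01 without Chow replicate 1).

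The other peroxisomal oxidation genes called, 1 here, were 2 under DESeq2, 6 under limma-voom, 2 with the offset, 7 without the replicates 2 of both groups and 0 to 4 with 1 library left out. Oxidases and peroxide handling, 2 here, gave 4 under limma-voom, 1 with no filter, 4 without the replicates 2 of both groups and 0 to 4 with 1 left out. Mitochondrial genes, 4 here, gave 9 under limma-voom, 1 with no filter, 9 without the replicates 2 of both groups and 0 to 9 with 1 left out. The PPAR-alpha targets ranged from 9 to 15. The cause of these differences between settings was not tested. Pex11a had the fewest counts of the 9 genes in every library, at 133 to 581. The part of depth in its result was not tested.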
